A study of Mus musculus with 4 samples.

Results

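Npas4, Arc, Egr1, Egr2, Egr3, Egr4, Nr4a1, Nr4a2, Nr4a3 and Bdnf, genes that neurons switch on in response to synaptic activity but that encode no AP-1 subunit, were described by the accessibility of their chromatin in interneuron nuclei of the mouse cortex and hippocampus. The 10 genes were taken by name from 21884 protein-coding genes with a unique symbol, and their accessibility was read from the peaks that overlap the gene body or lie within 50 kb on either side, with the promoter kept apart as the peaks within 2 kb of the gene start. The transcription factor motifs whose names begin with EGR or NR4A were taken with them, 7 of 579 motifs. Single-nucleus ATAC-seq, in which a transposase cuts open chromatin, gave 4 libraries at postnatal day 30, with 2 from cortex and 2 from hippocampus. All 4 came from Dlx6aCre;Sun1/sfGFP mice, and nuclei positive for DAPI and for GFP were sorted before the transposase step. Cre is driven in this line by Dlx6a regulatory sequence, so the sort takes cells with a history of Dlx6a activity and holds no untreated or stimulated group. The labels do not say whether the 2 libraries of a brain region came from separate animals, so the p-values measure only the spread between these libraries, which may be technical.

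Activity-regulated genes form a known sequence of events. Calcium entry and growth factor signalling act through the factors CREB, SRF and MEF2 to start transcription of immediate early genes within minutes, and many of these encode transcription factors that then act on later genes. Egr1 to Egr4 encode zinc finger factors that bind a GC-rich element, Nr4a1 to Nr4a3 encode orphan nuclear receptors that bind as monomers to an element called NBRE, and Npas4 encodes a basic helix-loop-helix PAS factor that pairs with ARNT proteins and is largely restricted to neurons. Arc encodes a synaptic protein that moves AMPA receptors off the membrane, and Bdnf encodes a neurotrophin that is secreted at synapses and signals through the receptor TrkB. Accessible chromatin at such a gene does not measure its transcription, and no RNA was measured here.

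The libraries differed in depth and in the extent of their peaks. They held from 2355 to 5576 nuclei and from 32005984 to 117290059 cut sites in peaks, and the median nucleus of cortex replicate 1 had 47236 cut sites against 7352 to 14917 in the other 3 libraries. Peaks were called in each library by itself and covered 97.6 and 33.4 Mb in cortex replicates 1 and 2 and 101 and 62.1 Mb in hippocampus replicates 1 and 2. Interneuron identity was checked on 7 genes of GABAergic neurons, whose summed level was 683 to 985 CPM (cut sites at the gene per 1000000 cut sites in peaks), against 40.0 to 68.7 for 7 genes of excitatory neurons, 95.1 to 137 for 5 of striatal projection neurons, 116 to 156 for 5 of astrocytes, 204 to 265 for 5 of microglia and 64.7 to 130 for 4 of endothelium. Nuclei with more cut sites at 10 oligodendrocyte-lineage genes than at these GABAergic genes made up 3.35% and 6.13% of the cortex libraries and 13.4% and 12.2% of the hippocampus libraries, and the summed level of the 10 genes was 99.95 to 119 CPM in cortex and 206 to 213 in hippocampus. Sums over nuclei cannot tell fewer nuclei of a type apart from lower accessibility in each. Any pair of libraries shared 11 to 47 cell barcodes.

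Sequence of the promoters is shown first, because cyclic AMP response elements (CRE, the binding site of CREB, of which TGACG is the core), CArG boxes (the binding site of SRF) and sites for the members' own products are the elements through which these genes are known to be switched on. RefSeq promoter sequences on GRCm38.p6 were matched for 7 of the 10 genes. Arc, Egr1 and Egr3 had no match and were not searched. The 250 bases before each start were searched on both strands for TGACGTCA (CRE), TGACG (CRE core), GCGNGGGCG (EGR), AAAGGTCA (NBRE) and the CArG box. Below, the capitals mark TGACG or its reverse complement CGTCA, the EGR letters or a CArG box. The Egr4 and Nr4a1 promoters are given in full since these genes had 2 of the largest differences between cortex and hippocampus described further on, and the Egr2 promoter since it had the largest and holds a CArG box.
Egr4 promoter, chr6:85513590-85513839, minus strand: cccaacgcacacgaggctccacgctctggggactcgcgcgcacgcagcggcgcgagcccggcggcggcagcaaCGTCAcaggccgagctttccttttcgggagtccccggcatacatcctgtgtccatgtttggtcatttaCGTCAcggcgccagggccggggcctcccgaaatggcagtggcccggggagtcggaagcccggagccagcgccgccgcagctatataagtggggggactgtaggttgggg
Nr4a1 promoter, chr15:101266596-101266845, plus strand: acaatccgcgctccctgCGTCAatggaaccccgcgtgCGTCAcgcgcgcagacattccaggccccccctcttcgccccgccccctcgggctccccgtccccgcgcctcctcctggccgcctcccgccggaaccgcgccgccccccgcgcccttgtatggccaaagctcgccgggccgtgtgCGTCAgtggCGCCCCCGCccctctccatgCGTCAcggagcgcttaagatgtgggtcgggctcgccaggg
Egr2 promoter, chr10:67537316-67537565, plus strand: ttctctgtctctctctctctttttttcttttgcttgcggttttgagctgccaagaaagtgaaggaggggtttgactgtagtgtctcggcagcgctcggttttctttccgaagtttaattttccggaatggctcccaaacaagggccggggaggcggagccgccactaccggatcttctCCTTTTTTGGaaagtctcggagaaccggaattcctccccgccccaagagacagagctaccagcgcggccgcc

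For the members whose 250 bases overlap an exon, a stretch of 30 bases around the core matches or the CArG box is given. These stretches show the paired core matches of Npas4, Nr4a2 and Nr4a3 and a CArG box beside a core match at a second Egr2 start.
Npas4, chr19:4990136-4990165, minus strand: ccctctcccgttcgaCGTCAcgggaTGACG
Nr4a2, chr2:57124122-57124151, minus strand: cacgCGTCAcggagcccggccgggcTGACG
Nr4a3, chr4:48045067-48045096, plus strand: aggagggTGACGtagcgtcccatgtCGTCA
Egr2, chr10:67537789-67537818, plus strand: tcctcagtCCATATATGGgcagcgaCGTCA

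Each of the 7 matched genes had at least 1 promoter with a core match, 6 had a promoter with 2 or more, and 3 (Nr4a1, Nr4a2 and Nr4a3) had a promoter with 4. Counted in the same way over 27025 genes, 19.8% had a promoter with a core match, 4.46% one with 2 or more and 0.163% one with 4 or more, and of all 32851 RefSeq promoters 17.8%, 3.90% and 0.137% did. The complete CRE was in none of the 7 genes' promoters, against 1.77% of all genes. The EGR letters were in the Nr4a1 and Nr4a2 promoters, against 5.33% of all genes. The CArG box was in promoters of Egr2 alone among the 7, against 1.62% of all genes, and Arc, Egr1 and Egr3 were not searched. The NBRE was in none, against 1.55%. These letter matches describe the sequence and are not evidence of binding. The promoters shown above overlapped a peak in every library. The Nr4a1 promoter of RefSeq lies inside the Nr4a1 gene as annotated by GENCODE, whose start is upstream, in a region at chr15:101265845-101268912 that overlaps an untranslated exon of Nr4a1. This region was singled out after its values were seen, and it held 42.0 and 66.2 CPM in cortex replicates 1 and 2 and 27.1 and 31.6 in hippocampus replicates 1 and 2.

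Bdnf has several promoters, and its sequence is shown because it was the member with more than 5 promoter cut sites in 1 library only. Of its 7 matched promoters, a single one held a core match, which reads CGTCA in the plus-strand sequence. This promoter lies inside the gene, outside the 2 kb window around the GENCODE start, and the promoter values below do not measure it. The stretch shown overlapped a peak in cortex replicate 1 only, with 206 cut sites, which was counted with the gene body.
Bdnf, chr2:109692376-109692405, plus strand: agaggaggtatcatatgacagctcaCGTCA
At Bdnf, cortex replicate 1 had 6 peaks in the gene and its flanks and each of the other 3 libraries had 1. The promoter peaks of cortex replicate 1 covered 3919 bp and held 4295 cut sites, or 36.6 CPM, while cortex replicate 2 and hippocampus replicate 1 had no promoter peak and hippocampus replicate 2 had 1 of 55 bp with 5 cut sites. Cortex replicate 1 was also the library with the most cut sites per nucleus. Of its promoter cut sites, 3465 lay in a peak at chr2:109675989-109678800 that reached beyond the 2 kb window. The peaks of cortex replicate 2 (289 cut sites) and hippocampus replicate 1 (120 cut sites) lay inside that stretch. They were outside the window and were counted with the gene body. A missing promoter peak is therefore not a measurement of closed chromatin. Within cortex replicate 1, a cut site at the Bdnf promoter was found in 56.6% of 1125 nuclei with markers of the medial ganglionic eminence (MGE), in 18.1% of 348 nuclei with markers of the caudal ganglionic eminence (CGE) and in 7.59% of 79 oligodendrocyte-marker nuclei, at 43.6, 13.3 and 9.88 CPM. These shares come from 1 library. The Bdnf promoter did not pass the low-count filter. Without the filter edgeR gave a log2 ratio of MGE-marker to CGE-marker nuclei of 1.58 ± 0.31 (SE). In that fit cortex replicate 2 and hippocampus replicate 1 had no promoter peak and hippocampus replicate 2 had 5 cut sites. The ratio thus rests on cortex replicate 1, and its p-value, which cannot measure a spread between libraries, is not given.

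The other 9 genes had a promoter peak in every library, against 58.3% to 66.8% of all genes. Per kilobase of peak, the highest promoter levels were at Egr1, with 20.6 and 62.2 CPM per kb in cortex replicates 1 and 2 and 21.1 and 30.6 in hippocampus replicates 1 and 2. Nr4a3 followed with 20.5, 51.8, 19.5 and 29.2 in the same order, so that the 2 genes overlap. The lowest level in 3 of the 4 libraries was at Nr4a2, with 10.0, 14.7, 6.48 and 11.9, and in cortex replicate 1 at Egr2, with 8.30. The median promoter with a peak had 16.2, 36.1, 13.2 and 22.7, and the members therefore lay on both sides of it. Not divided by length, the Egr1 and Nr4a3 promoters stood among the most accessible of all genes, with a percentile in the lowest of the 4 libraries of 98.2 for Egr1 and 98.7 for Nr4a3.

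The first comparison asked whether the promoters differ between brain regions. Normalised CPM are scaled to a library's sum over all features of the kind compared, here all promoters, with TMM (trimmed mean of M values) factors. They are therefore not a share of all cut sites in peaks. On this scale 8 of the 9 tested promoters were higher in both cortex libraries than in both hippocampus libraries. None passed the edgeR quasi-likelihood test at an adjusted p under 0.05. Among all 14177 promoters tested, 0.0141% passed, 10.6% were higher in both cortex libraries and 13.6% in both hippocampus libraries. The median log2 ratio of hippocampus to cortex was -0.36 over the 9 members and 0.01 over all promoters. At an unadjusted p under 0.05, 3 of the 9 members and 1.60% of all promoters passed. DESeq2 called 2 of the 3, Egr2 and Egr4, with adjusted p of 0.0166 and 0.0159, against 0.430% of all promoters. The 8 genes share libraries and are not 8 independent observations.

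**Figure D1:**
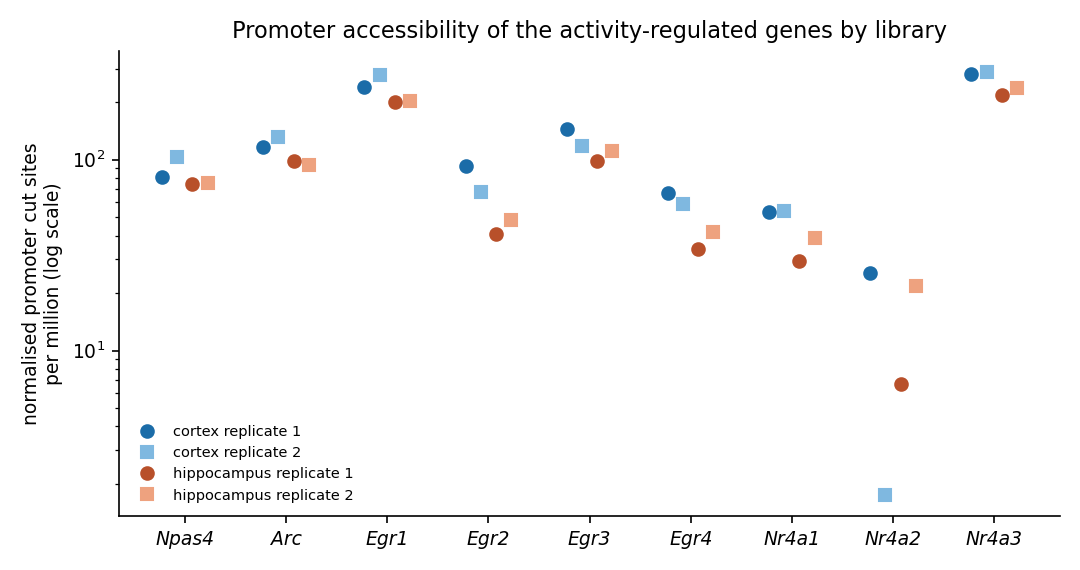
Promoter accessibility of 9 genes in each library, as TMM-normalised CPM on a log axis; each point is 1 library. At every gene but Nr4a2 both cortex libraries (blue shades) lie above both hippocampus libraries (orange shades), and at Nr4a2 the libraries run from 1.76 to 25.6.

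Among the Egr genes, the Egr2 promoter, which serves a factor also known from myelination, had 92.3 and 67.5 normalised CPM in cortex replicates 1 and 2 and 41.0 and 48.3 in hippocampus replicates 1 and 2. The groups did not overlap, with means of 79.9 ± 17.5 (SD, n = 2) in cortex and 44.6 ± 5.13 (SD, n = 2) in hippocampus and a log2 ratio of -0.84 ± 0.21 (SE), which failed the edgeR test with an adjusted p of 0.9998. The Egr4 promoter had 66.8 and 58.7 in cortex and 34.2 and 41.9 in hippocampus, a log2 ratio of -0.72 ± 0.18 (SE). At both genes the peak in cortex replicate 1 was the widest, 4992 bp for Egr2 against 1214 to 2028 bp in the other libraries and 2615 bp for Egr4 against 745 to 917 bp. With the covered length as an offset, the log2 ratio of Egr2 became 0.46 ± 0.51 (SE) and that of Egr4 -0.13 ± 0.50 (SE), with a median over all promoters of -0.22. The part of peak width in these differences was not tested. The GENCODE start of Egr2 lies upstream of most of its RefSeq promoters, and with the promoter taken as 1 kb on either side of that start the log2 ratio of Egr2 was -2.91 ± 0.24 (SE), with an adjusted p of 0.779 by edgeR. That value compares unlike stretches, since the cortex peaks of 4992 and 2028 bp were counted whole and the hippocampus peaks there were of 435 and 468 bp, with 240 and 284 cut sites.

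The Egr1 promoter, the best studied target of SRF in this family, had 242 and 279 normalised CPM in cortex and 199.6 and 204 in hippocampus. The Egr3 promoter had 145 and 118 in cortex and 98.8 and 110 in hippocampus. Neither gene's groups overlapped, and their log2 ratios were -0.37 ± 0.18 (SE) and -0.33 ± 0.17 (SE), close to the median of the members.

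Among the nuclear receptor genes, Nr4a1 had 53.4 and 53.7 normalised CPM at its promoter in cortex and 29.5 and 38.7 in hippocampus, a log2 ratio of -0.65 ± 0.20 (SE). Its peaks covered 1517, 840, 1018 and 973 bp, and with the covered length as an offset the log2 ratio was -0.52 ± 0.50 (SE). Nr4a3 had 282 and 288 in cortex and 218 and 239 in hippocampus, a log2 ratio of -0.32 ± 0.18 (SE). Nr4a2, a factor needed by dopaminergic neurons, was the exception, with 25.6 and 1.76 in cortex and 6.71 and 21.8 in hippocampus. Its cortex libraries were the highest and the lowest of the 4, its peak covered 1147, 66, 369 and 922 bp, and its log2 ratio of 0.06 ± 1.59 (SE) carries no direction.

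The Npas4 promoter had 81.4 and 104 normalised CPM in cortex and 74.1 and 75.7 in hippocampus, a log2 ratio of -0.31 ± 0.17 (SE). The Arc promoter had 116 and 131 in cortex and 98.9 and 93.7 in hippocampus, a log2 ratio of -0.36 ± 0.15 (SE). Both genes separated by brain region on this scale only by a small margin. As a share of all cut sites in peaks, Npas4 overlapped, with 36.5 and 57.1 CPM in cortex and 26.4 and 38.2 in hippocampus. For Arc the covered length as an offset gave a log2 ratio of 0.03 ± 0.54 (SE).

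The differences were set beside the composition of the libraries. Without oligodendrocyte-marker nuclei, the median log2 ratio of the 9 members was -0.37. Among MGE-marker nuclei alone it was -0.35 and among CGE-marker nuclei alone -0.60, where Egr2 stood at -1.06 ± 0.25 (SE) and Egr4 at -1.07 ± 0.24 (SE). Scaling to all cut sites in peaks instead of the promoter sum moved the median of all promoters to -0.21 and that of the members to -0.59. The TMM factors of the promoter sums were close to each other, from 0.984 in hippocampus replicate 1 to 1.02 in cortex replicate 2. With 1 library left out, the log2 ratio ran from -1.04 to -0.60 at Egr2 and from -0.87 to -0.58 at Egr4.

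**Figure D2:**
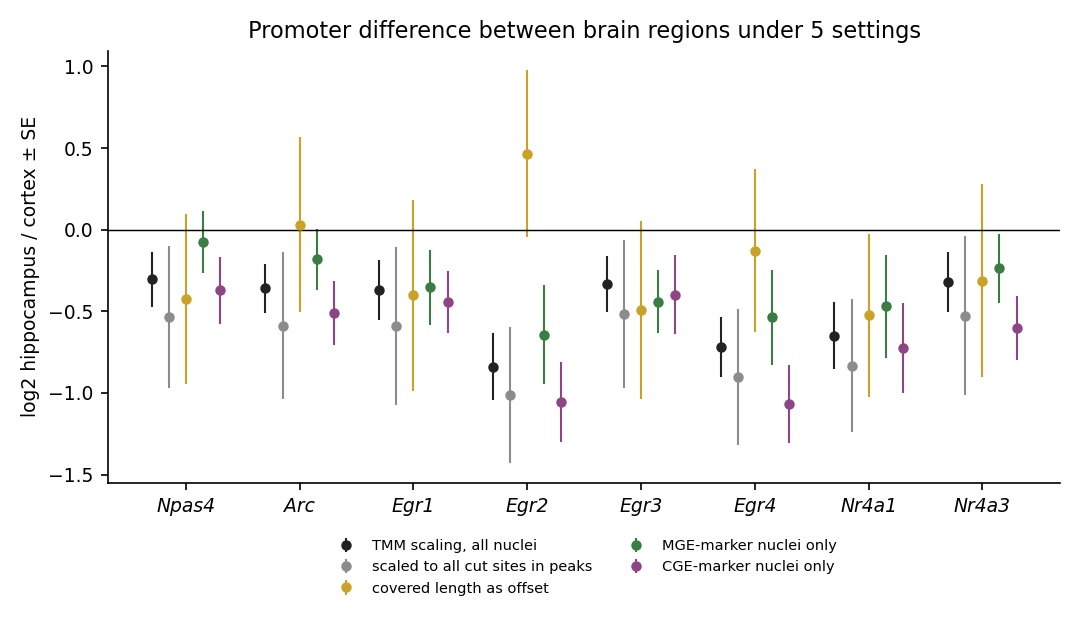
Log2 ratio of hippocampus to cortex at 8 promoters under 5 settings, with the SE of each fit as bars and 0 marked by a line. Values below 0 are higher in cortex; only Arc and Egr2 rise above 0, and only with the covered length as an offset (0.03 and 0.46).

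Distal accessibility, the sum over the gene body and flanks outside the promoter, differed less. None of the 10 members passed the edgeR test, as none of 19044 sums did (0%), none reached an unadjusted p under 0.05 (2.25% of all sums did), and DESeq2 called none of the members (0.809% of all sums). The median log2 ratio was -0.26 over the members and -0.01 over all sums, and 3 of the 10 members were higher in both cortex libraries, against 12.1% of all sums in that direction and 13.6% in the other. These 3 were Egr1, Nr4a1 and Bdnf. Egr1 had 74.0 and 98.9 normalised CPM in cortex and 65.8 and 69.3 in hippocampus, a log2 ratio of -0.36 ± 0.19 (SE). Nr4a1 had 120.4 and 140.5 in cortex and 86.2 and 103 in hippocampus, a log2 ratio of -0.46 ± 0.20 (SE) at an unadjusted p of 0.0516 by edgeR. The Nr4a1 sum includes the region with the RefSeq promoter shown above, chr15:101265845-101268912, which had a log2 ratio of -0.67 ± 0.26 (SE). Bdnf had 6.66 and 4.11 in cortex and 0.801 and 0 in hippocampus, and each of these sums rests on 1 to 4 peaks inside the gene or, in hippocampus replicate 2, on none. The Bdnf sums compare unlike stretches. The peaks of cortex replicate 2 and hippocampus replicate 1 lay within a peak that was counted as promoter in cortex replicate 1. For the other 7 genes the libraries overlapped, with log2 ratios from -0.65 at Nr4a2 to 0.05 at Nr4a3.

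Regions with a peak in all 4 libraries were compared next. Each library's own peaks were summed inside a region, so the covered length still differed. At the Egr2 start region it was 4992 and 2028 bp in cortex replicates 1 and 2 and 1538 and 1285 bp in hippocampus replicates 1 and 2. The part of peak width was not tested here either. The members' windows held 56 of 46698 such regions, and Bdnf had none. Of the 56, 9 covered a member's start and 14 covered, or lay within 2 kb of, the start of another gene. None of the 56 passed the edgeR test between brain regions (0% of all regions passed), 6 of the 56 (10.7%) had an unadjusted p under 0.05 against 8.14% of all regions, and DESeq2 called none (0.754% of all regions). Of the 9 start regions, 7 were higher in both cortex libraries, against 15.4% of all regions, and none was higher in both hippocampus libraries, against 21.4%. Of the 33 distal regions without another gene's start within 2 kb, 9 were higher in both cortex libraries and 2 in both hippocampus libraries. The Nr4a1 region with the RefSeq promoter was among the 9. Of the 14 with another gene's start within 2 kb, 2 and 0 were. The median log2 ratio was -0.39 in the start regions, -0.11 in the distal regions without another start within 2 kb and -0.04 in those with one.

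The most accessible distal region of Npas4 lay upstream, at -11.75 kb from the start, at chr19:5001535-5002588 (GRCm38), overlaps no protein-coding gene, and held 44.4 and 72.0 CPM in cortex replicates 1 and 2 and 40.8 and 50.6 in hippocampus replicates 1 and 2. This was more than the Npas4 start region itself, chr19:4989006-4991220, which holds coding and untranslated exons and had 36.5, 57.1, 26.4 and 38.2. The most accessible distal region of Nr4a1 lay upstream, at -7.87 kb from the start, at chr15:101245778-101247011, also outside any protein-coding gene, with 42.3 and 64.2 in cortex and 32.4 and 51.8 in hippocampus. Its libraries overlapped. The most accessible distal region of Nr4a2 lay inside the gene over untranslated exon sequence at chr2:57114122-57117988, with 39.0 in cortex replicate 1 and 14.0 to 16.7 in the other 3 libraries, where its covered length was 917 to 2203 bp against 3867 bp. For Arc, Egr1, Egr2, Egr3, Egr4 and Nr4a3 the most accessible distal region covered, or lay within 2 kb of, the start of a neighbouring gene. These genes were Them6, Reep2, Ado, Bin3, Fbxo41 and Stx17.

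The second comparison asked whether the genes differ between 2 families of interneurons within the same library. MGE-marker nuclei were gated on a marker list that includes Lhx6, Sox6, Satb1, Nxph1, Sst, Pvalb and Tac1 and CGE-marker nuclei on Adarb2, Prox1, Nr2f2, Npas1, Vip, Htr3a, Calb2 and Cnr1, with a ratio of 2 between the scaled sums and at least 10 cut sites. The gate took 1125, 185, 864 and 399 MGE-marker and 348, 126, 903 and 650 CGE-marker nuclei from cortex replicates 1 and 2 and hippocampus replicates 1 and 2, and the nuclei with a ratio between 1.5 and 3 in either direction, near the limit, numbered 858, 275, 1272 and 747. Nuclei with more cut sites at oligodendrocyte-lineage than at GABAergic genes were left out of both classes. Summed nuclei of each class and library were compared with the library as a block.

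Of the 9 members tested, 1 was higher and 2 were lower in MGE-marker nuclei by the edgeR quasi-likelihood test at an adjusted p under 0.05. Over all 13949 promoters tested 6.20% passed, 3.19% higher and 3.01% lower. In all 4 libraries 1 member was higher and 3 were lower in MGE-marker nuclei, against 11.4% and 13.4% of all promoters. DESeq2 called 1 of the 3 members, Arc, against 3.32% of all promoters.

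Arc was higher in MGE-marker nuclei in 4 of 4 libraries. Its promoter had 120, 137, 113 and 112 normalised CPM in MGE-marker nuclei of cortex replicates 1 and 2 and hippocampus replicates 1 and 2, and 96.2, 119, 76.7 and 71.9 in CGE-marker nuclei. The means were 120 ± 11.8 (SD, n = 4) and 90.9 ± 21.5 (SD, n = 4), a log2 ratio of 0.45 ± 0.08 (SE) with an adjusted p of 0.0012 by edgeR. The call held with each library left out, with adjusted p from 7.57e-04 to 0.0295. The Arc start region, chr15:74671007-74674977, which covers coding and untranslated exon sequence, gave a log2 ratio of 0.40 ± 0.09 (SE) with an adjusted p of 0.0174 by edgeR, and this call was lost without hippocampus replicate 1 (0.0820) or hippocampus replicate 2 (0.128). Without the library block the spread between libraries entered the error, and the adjusted p for the promoter was 0.9999.

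Npas4 was lower in MGE-marker nuclei in 4 of 4 libraries, with 72.6, 73.5, 64.8 and 73.4 normalised CPM against 115, 85.4, 77.1 and 80.8 in CGE-marker nuclei. The log2 ratio was -0.36 ± 0.10 (SE), with an adjusted p of 0.0242 by edgeR. The difference was largest in cortex replicate 1, the deepest library. Without that library the log2 ratio was -0.20 and the adjusted p 0.552, and without hippocampus replicate 1 the adjusted p was 0.0552. The call was also lost at gate ratios of 1.5 (0.0556) and 3 (0.0975), with DESeq2 (0.14) and without the library block (0.9999). The Npas4 start region gave a log2 ratio of -0.39 ± 0.11 (SE) with an adjusted p of 0.0422 by edgeR, and this call was lost with any 1 library left out.

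Nr4a1 was also lower in MGE-marker nuclei in 4 of 4 libraries, with 49.5, 40.2, 25.7 and 39.6 normalised CPM against 77.9, 49.2, 38.0 and 40.9. The log2 ratio was -0.43 ± 0.13 (SE), with an adjusted p of 0.0497 by edgeR that stood at the threshold. It rose to 0.516 without cortex replicate 1, to 0.219 without hippocampus replicate 1 and to 0.184 with DESeq2. The call was also lost at gate ratios of 1.5 (0.115) and 3 (0.0594), without the low-count filter (0.0522) and without the library block (0.9999).

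The other Egr and Nr4a genes did not pass. Egr1 was lower in MGE-marker nuclei in 4 of 4 libraries by a log2 ratio of -0.14 ± 0.06 (SE), with an adjusted p of 0.183 by edgeR. Egr3 had a log2 ratio of -0.26 ± 0.09 (SE) and an adjusted p of 0.0878 by edgeR, lower in 3 of 4 libraries, and it passed at 0.0139 without cortex replicate 2 and at 0.0408 with a gate ratio of 3. Nr4a3 had a log2 ratio of -0.16 ± 0.07 (SE), lower in 3 of 4 libraries, and without hippocampus replicate 1 it passed, at -0.27 with an adjusted p of 0.0333 by edgeR. The log2 ratios of Egr2, Egr4 and Nr4a2 were 0.09, 0.11 and -0.15, with SE of 0.12, 0.13 and 0.25.

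**Figure D3:**
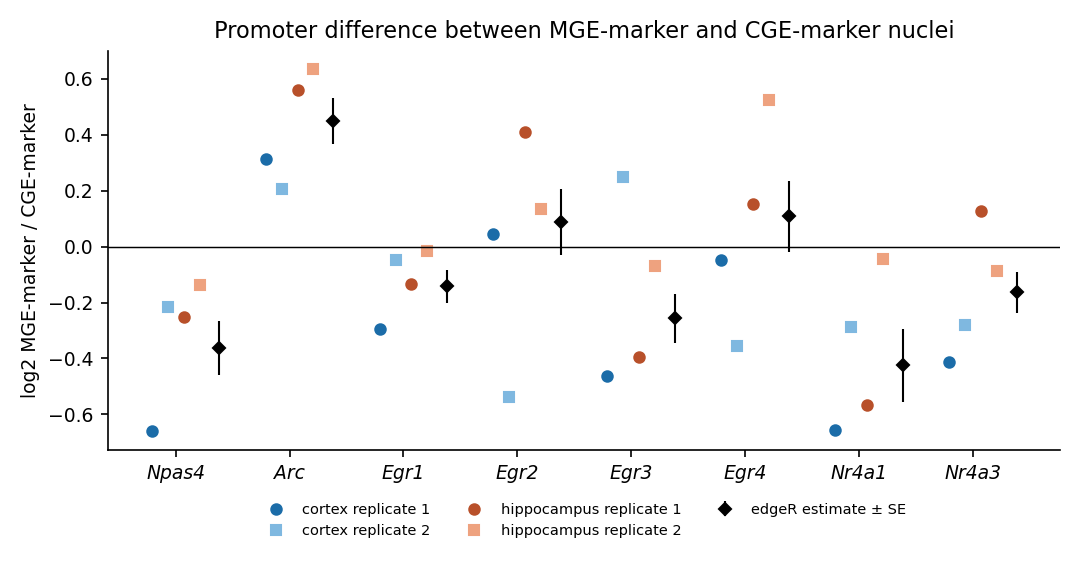
Log2 ratio of MGE-marker to CGE-marker nuclei at 8 promoters, with 1 point per library and the edgeR estimate ± SE as a black diamond. All 4 points lie above 0 at Arc and below 0 at Npas4, Egr1 and Nr4a1; at Egr2, Egr3, Egr4 and Nr4a3 they fall on both sides.

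Among the common regions, 3 of the members' 56 passed between the classes, against 16.3% of 46667 regions, with 9.07% higher and 7.24% lower in MGE-marker nuclei. DESeq2 called 11 of the 56, against 25.4% of all regions. Besides the Arc and Npas4 start regions, this was a region 19.1 kb downstream of the Egr3 start at chr14:70095715-70096786, which overlaps no protein-coding gene. It had 22.1, 16.9, 14.0 and 12.1 normalised CPM in MGE-marker nuclei and 7.01, 19.5, 8.10 and 3.72 in CGE-marker nuclei, and was higher in 3 of 4 libraries. Its log2 ratio was 1.04 ± 0.31 (SE) with an adjusted p of 0.0491 by edgeR, and the call was lost without cortex replicate 1 (0.0535), hippocampus replicate 1 (0.107) or hippocampus replicate 2 (0.234). It was thus higher in MGE-marker nuclei while the Egr3 start region stood at -0.28 ± 0.11 (SE). Whether the class difference itself differed between cortex and hippocampus was tested as an interaction for 72 values, the 9 promoters, 56 regions and 7 motifs. None passed by edgeR, against 0.165% of all promoters, 0.0964% of all common regions and 0% of all motifs. Of the 72, 8 had an unadjusted p under 0.05, as did 890 of all 13949 promoters, 4319 of all 46667 common regions and 56 of all 579 motifs. The smallest adjusted p of the 72 was 0.0597 by edgeR, at the Nr4a1 region that holds the RefSeq promoter shown above, chr15:101265845-101268912. That region had 47.2 and 60.7 normalised CPM in MGE-marker nuclei of cortex replicates 1 and 2 against 85.1 and 96.6 in CGE-marker nuclei, and 40.8 and 40.0 against 36.0 and 38.5 in hippocampus. Both cortex libraries were thus lower in MGE-marker nuclei and both hippocampus libraries higher, and the log2 ratio of MGE-marker to CGE-marker nuclei was higher in hippocampus by 0.91 ± 0.17 (SE), without passing the test.

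Oligodendrocyte-marker nuclei gave a view of the same promoters outside interneurons. The values are CPM in nuclei with at least 3000 cut sites and are a description, since the nuclei of cortex replicate 1 numbered 79 and those of the others 220, 559 and 381. Npas4 had 5.49 in replicate 1 of cortex and 54.7 in its replicate 2, and 15.3 and 14.9 in those of hippocampus. Nr4a1 had 3.84, 26.4, 4.47 and 4.79, and Egr4 had 4.39, 35.4, 8.15 and 6.92. At these 3 genes the level in 3 of the 4 libraries was below that of both interneuron classes, and cortex replicate 2 was the exception. Arc had 65.9, 60.5, 39.4 and 59.1, which is not below its level of 53.2, 75.03, 40.1 and 55.4 in MGE-marker nuclei in 2 of the 4 libraries. Egr2 had 76.8, 29.0, 17.6 and 43.7 and Nr4a3 had 177, 160, 94.4 and 162, at or above MGE-marker nuclei in every library. In cortex replicate 2, 3289 of 4191 nuclei had fewer than 10 cut sites at the class markers, and how far its oligodendrocyte-marker gate separates cell types was not tested. Since the hippocampus libraries held more oligodendrocyte-marker nuclei, the values without them are given above.

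**Figure D4:**
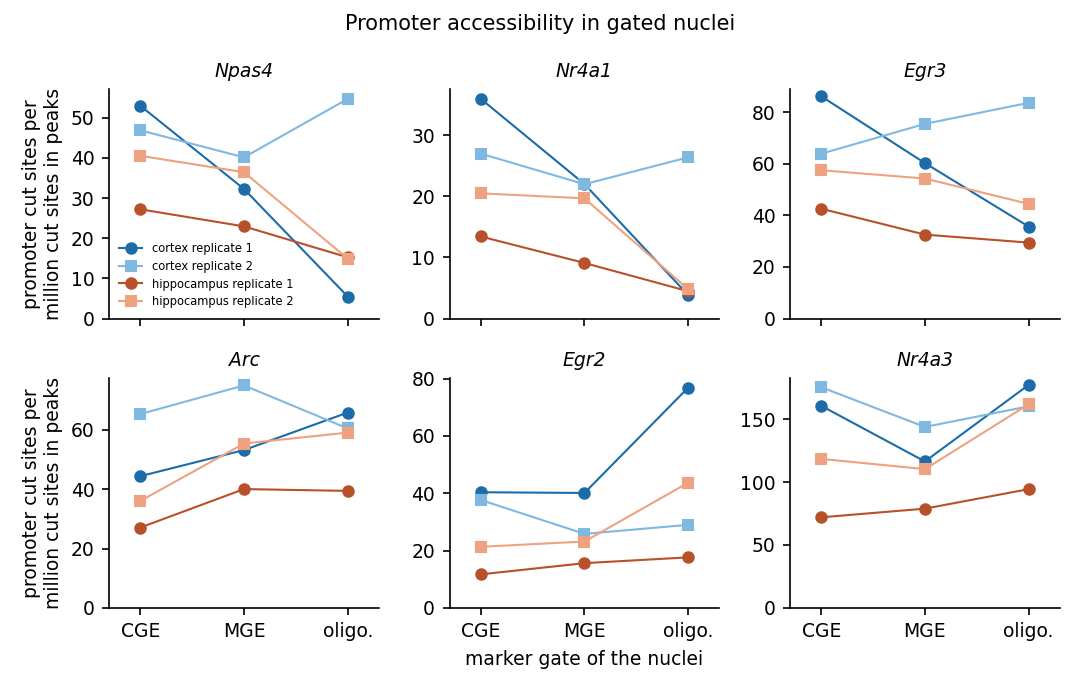
Promoter CPM at 6 genes in CGE-marker, MGE-marker and oligodendrocyte-marker nuclei with at least 3000 cut sites; lines join the values of 1 library. At Npas4 and Nr4a1 oligodendrocyte-marker nuclei are the lowest in 3 libraries and not in cortex replicate 2, while at Nr4a3 they are above MGE-marker nuclei in all 4.

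The share of nuclei with a cut site followed the depth of the library. A cut site at the Egr1 promoter was found in 85.4% (exact 95% interval 83.9 to 86.8) of 2355 nuclei of cortex replicate 1 and in 41.6% (40.1 to 43.1) of 4191 nuclei of cortex replicate 2. Thinned to 3000 cut sites per nucleus, which left out 414 nuclei of cortex replicate 2, the shares were 26.8% and 29.9%. In hippocampus replicates 1 and 2 the thinned shares for Egr1 were 16.5% and 23.5%, with 381 and 67 nuclei left out. The thinned share for Nr4a3 was 30.3% and 30.4% in cortex and 18.1% and 27.2% in hippocampus. For Npas4 it was 9.86% and 12.5% in cortex and 6.51% and 9.01% in hippocampus, and for Nr4a2 it was 3.37% and 0.292% in cortex and 0.632% and 2.99% in hippocampus. The thinned shares of Egr1, Nr4a3 and Npas4 were higher in both cortex libraries, and those of Nr4a2 overlapped. Thinning counts against all cut sites in peaks, not against promoter cut sites, and applies no TMM. Thinned shares were not computed for all promoters. Scaled to all cut sites in peaks, the median log2 ratio of hippocampus to cortex was -0.21 over all promoters and -0.59 over the 9 members. The intervals cover counting error only.

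Motif counts gave a second readout, in which cut sites in peaks holding a motif are summed over the genome for each nucleus. The 4 EGR motifs together took 0.490% and 0.572% of all motif counts in cortex replicates 1 and 2 and 0.498% and 0.603% in hippocampus replicates 1 and 2. The 3 NR4A motifs took 0.520% and 0.364% in cortex and 0.475% and 0.443% in hippocampus. Replicates of 1 brain region differed by as much as the regions did: no EGR or NR4A motif separated the brain regions, against 9.50% of 579 motifs higher in both cortex libraries and 3.63% higher in both hippocampus libraries. None passed the edgeR test (0% of all motifs), none had an unadjusted p under 0.05 (0.173% of all motifs did), and DESeq2 called none (0% of all motifs). The median log2 ratio of hippocampus to cortex was 0.06 for the EGR motifs, 0.05 for the NR4A motifs and -0.12 for all motifs. Motifs of 1 family resemble each other, so they are not independent measures.

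Between the interneuron classes the motifs moved by small amounts. The NR4A2 motif (MA0160.1) was higher in MGE-marker nuclei in 4 of 4 libraries, with 4455, 3167, 4078 and 3875 counts per 1000000 motif counts against 4253, 3112, 3963 and 3734 in CGE-marker nuclei. The log2 ratio of 0.05 ± 0.01 (SE) had an adjusted p of 0.0012 by edgeR and 0.0188 by DESeq2. The EGR3 (MA0732.1) and EGR4 (MA0733.1) motifs were lower in MGE-marker nuclei in 4 of 4 libraries, each with a log2 ratio of -0.03 ± 0.01 (SE) and adjusted p of 0.0426 and 0.0440 by edgeR. Both calls were lost without cortex replicate 1 (0.362 and 0.342), cortex replicate 2 (0.0965 and 0.107) or hippocampus replicate 2 (0.0662 and 0.0892), and DESeq2 gave 0.198 and 0.152. In all, 3 of the 7 motifs passed, against 32.1% of 579 motifs, with 17.3% higher and 14.9% lower. DESeq2 called 1 of the 7, against 18.1% of all motifs. The EGR1, EGR2, NR4A1 and NR4A2::RXRA motifs did not pass.

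Across single nuclei the EGR share had a median of 0.490% in cortex replicate 1, 0.569% in cortex replicate 2 and 0.5004% and 0.601% in hippocampus. It ran from 0.316% to 0.698% in cortex replicate 1 (SD 0.0415) and from 0.270% to 0.992% in cortex replicate 2 (SD 0.0690). In hippocampus replicate 1 it ran from 0.208% to 0.919% (SD 0.0606) and in hippocampus replicate 2 from 0.385% to 0.843% (SD 0.0553), so the deepest library had the lowest spread. In oligodendrocyte-marker nuclei the pooled share was 0.611%, 0.583%, 0.545% and 0.679%, above that of MGE-marker nuclei (0.483%, 0.567%, 0.493% and 0.594%) in all 4 libraries. The EGR share went down with depth, with Pearson correlations across nuclei with log10 cut sites of -0.22, -0.04, -0.23 and -0.15 in 2355, 4191, 5576 and 3184 nuclei, and oligodendrocyte-marker nuclei were shallower, with medians of 22091, 6169, 4293 and 9350.5 cut sites against 51112, 10720, 15343.5 and 17785 in MGE-marker nuclei. The part of depth in the difference was not tested. The correlations of the EGR share with the NR4A share across nuclei were -0.05, 0.00, -0.05 and -0.02. The motifs most like the EGR set across nuclei were SP2 (MA0516.1), SP3 (MA0746.1) and KLF16 (MA0741.1), with median correlations over the 4 libraries of 0.728, 0.726 and 0.720. The nuclei of a library share its peaks and depth, and base composition was not measured.

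**Figure D5:**
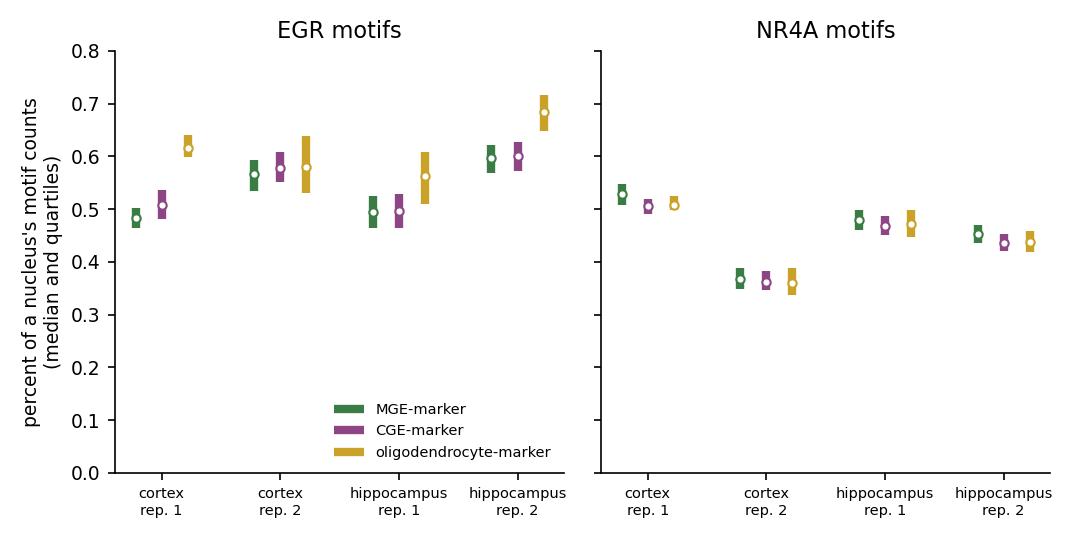
Share of a nucleus's motif counts taken by the 4 EGR motifs (left) and the 3 NR4A motifs (right), as the median (circle) and quartiles (bar) over nuclei of each marker gate and library. Libraries of 1 brain region lie apart by as much as the brain regions, and the EGR median of oligodendrocyte-marker nuclei is above that of MGE-marker nuclei in every library.

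Other genes of the programme were read from 2 lists. Of 24 further activity-regulated genes, 23 promoters were tested between brain regions, Nrn1 being filtered out. None passed by edgeR or DESeq2, against 0.0141% and 0.430% of all promoters. An unadjusted p under 0.05 was found at 2, against 1.60% of all promoters. The median log2 ratio was -0.20. Of the 23, 9 were higher in both cortex libraries and 0 in both hippocampus libraries, against 10.6% and 13.6% of all promoters. The 2 with the smallest p were Nptx2, a secreted pentraxin of synapses, at -1.30 ± 0.46 (SE), and Rasgrp1, an exchange factor for Ras, at -0.58 ± 0.22 (SE). The distal sums of the 24 genes had a median of 0.01, with 4 higher in cortex and 4 in hippocampus, against 12.1% and 13.6% of all sums. None was called by edgeR or DESeq2, against 0% and 0.809% of all sums. An unadjusted p under 0.05 was found at 1, against 2.25% of all sums. Between the classes 2 of the 23 were higher and 2 lower in MGE-marker nuclei by edgeR, against 3.19% and 3.01% of all promoters. Rasgrp1 was higher, at 0.73 ± 0.13 (SE) with an adjusted p of 0.00128, and Klf10, a Krüppel-like factor, was lower, at -0.51 ± 0.07 (SE) with an adjusted p of 9.25e-05.

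Of 20 genes of the upstream signalling and partner list, 19 promoters were tested, Camk4 being filtered out. None passed between brain regions by edgeR or DESeq2, against 0.0141% and 0.430% of all promoters. An unadjusted p under 0.05 was found at 2, against 1.60% of all promoters, and the median log2 ratio was -0.06. Of the 19, 4 were higher in both cortex libraries and 1 in both hippocampus libraries, against 10.6% and 13.6% of all promoters. The smallest p were at Nab2 (-0.66 ± 0.18, SE) and Nab1 (-0.61 ± 0.22, SE), which encode corepressors that bind EGR proteins. In distal sums the smallest p were at Crebbp (0.72 ± 0.29, SE), a coactivator of CREB, and Rps6ka5 (0.43 ± 0.17, SE), a kinase that acts on CREB. None of the list's distal sums was called by edgeR or DESeq2, against 0% and 0.809% of all sums. An unadjusted p under 0.05 was found at 2, against 2.25% of all sums. Of the 20 sums, 2 were higher in both cortex libraries and 5 in both hippocampus libraries, against 12.1% and 13.6% of all sums. Between the classes 0 were higher and 2 lower in MGE-marker nuclei by edgeR, against 3.19% and 3.01% of all promoters. The 2 were Nab2, at -0.39 ± 0.08 (SE) with an adjusted p of 0.00497 by edgeR, and Crem, a repressor and activator at CRE sites. Crem stood at -0.25 ± 0.07 (SE) with an adjusted p of 0.0402 by edgeR. Nab2 had 107, 119, 72.1 and 61.1 normalised CPM in MGE-marker nuclei and 123, 159, 109 and 81.0 in CGE-marker nuclei, lower in 4 of 4 libraries.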

How the data were processed

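Nuclei were sorted from cortex and hippocampus, and 4 libraries were sequenced (2 per brain region). The authors processed the reads with Cell Ranger ATAC (1.2.0, per the labels) against GRCm38 (mm10), calling peaks in each library separately; other settings are not given in the sources used here. The deposited matrices hold counts per nucleus: cut sites in each peak, and cut sites per motif for 579 motifs. Peak sets differ between libraries in number and width, so sums over them depend on what was called.

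Peaks were assigned to genes of GENCODE on GRCm38. Counts were summed per library, or per marker gate and library, and tested with edgeR (4.0.16) by its quasi-likelihood test. Library sizes were the sums over all features of the kind tested, with TMM scaling. A low-count filter and Benjamini-Hochberg adjustment over all features were used. Motif sums were scaled to all motif counts. DESeq2 (1.42.0), limma (3.58.1), R (4.3.3) and Python (3.11.15) were also used. Steps were tested on simulated data. The alternatives were DESeq2, the replicate block, left-out libraries, other filters, windows, gates, nuclei and common regions; scaling to all cut sites in peaks was added after the data were seen. The MGE gate also used a marker that is not reported here. No doublet caller was run, and all deposited nuclei were kept. With 2 libraries per region, precision is limited by the spread between libraries.

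The members and lists were chosen with earlier results of these data known. All members and every EGR or NR4A motif are named, with the most accessible start and distal region of each gene, the regions that passed, the 3 motifs most like EGR, and the 2 genes of each list with the smallest p. Sequences come from RefSeq on GRCm38.p6.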

Additional observations from a re-analysis of the deposited data

How the results depend on the processing

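Counts of calls moved with the method and with the library left out, and the cause was not tested. Between brain regions, edgeR called 2 promoters, 0 distal sums, 0 common regions and 0 motifs, and DESeq2 called 61, 154, 352 and 0. Scaling to all cut sites in peaks, chosen after the data were seen, gave 6, 1 and 275 for the first 3. The covered length as an offset and a promoter of 1 kb gave 0 promoters, and no low-count filter gave 1 distal sum. Between the interneuron classes, edgeR called 865 promoters, 7613 regions and 186 motifs, DESeq2 463, 11860 and 105, and edgeR without the library block 2, 644 and 0. With 1 library left out, the counts ranged from 3 to 325 promoters, 0 to 689 distal sums, 0 to 3193 regions and 0 to 100 motifs between brain regions, each highest without cortex replicate 1, and from 301 to 1024 promoters, 2777 to 7062 regions and 79 to 154 motifs between the classes. A fit with 1 library in a group takes the spread from the other group.

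Among the log2 ratios of hippocampus to cortex, the direction turned at the promoters of Arc (0.0296), Egr2 (0.46) and Nr4a2 (-0.21) with the covered length as an offset, and at Nr4a2 without oligodendrocyte-marker nuclei (-0.0261) and in CGE-marker nuclei (-0.67). Distal sums turned at Arc (0.0033) and Egr4 (-0.24) with flanks of 20 kb, at Egr4 (-0.75) and Nr4a3 (-0.66) with the covered length, and at Nr4a3 without oligodendrocyte-marker nuclei (-0.16), in CGE-marker nuclei (-0.22) and in common regions (-0.12). The NR4A2::RXRA motif turned with DESeq2 (0.0834) and TMM (0.0521). Between the classes, Nr4a2 turned at a gate ratio of 3 (0.0384). With 1 library left out, the ranges that crossed 0 were -1.01 to 2.96 for the Nr4a2 promoter, and for distal sums -0.18 to 0.0617 at Arc, -0.46 to 0.10 at Egr3, -0.19 to 0.33 at Egr4, -1.22 to 0.31 at Nr4a2 and -0.47 to 0.47 at Nr4a3. For motifs they were -0.17 to 0.32 (NR4A2), -0.31 to 0.0468 (EGR2), -0.0909 to 0.19 (EGR3), -0.0703 to 0.21 (EGR4), -0.29 to 0.50 (NR4A1), -0.16 to 0.12 (NR4A2::RXRA) and -0.07 to 0.23 (EGR1). For class differences they were -0.0199 to 0.17 (Egr2), -0.0431 to 0.20 (Egr4) and -0.39 to 0.11 (Nr4a2).

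The libraries carry replicate numbers 1 and 2, and a fit with the replicate block gave 2 promoters, 0 distal sums, 0 regions and 0 motifs. Its value for the Nr4a3 distal sum was -0.011. The correlation of same-numbered libraries' deviations was 0.0797 for promoters, 0.3315 for distal sums, -0.0006 for regions and 0.6821 for motifs, and the labels name no shared litter or batch, so the numbers are not taken as pairs. The values of Bdnf and Nr4a2 rest on promoter peaks that were small or missing in some libraries.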
